A study of Mus musculus with 4 samples.

Results

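The genes described here encode the core proteins of the spliceosomal small nuclear ribonucleoproteins (snRNPs), in a pooled CRISPR-Cas9 knockout screen for loss-of-function effects on the retroelement MERVL. They were taken by name, and the list was chosen with earlier results of these data known. It holds all gene symbols beginning with Snrp, Lsm and a digit, Sf3a or Sf3b and a digit, or Prpf and a digit. U2af1, U2af2, Eftud2, Snrnp200, Cdc5l and Plrg1 are included as well. This gave 52 of the 20380 genes in the table that the authors deposited, and no filter on low values was applied. Of the 52, 45 have 6 guides and 7 have 5 guides, 305 guides in all.

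The cells were E14, an established mouse embryonic stem cell line, with a MERVL-tdTomato reporter in every group. About 130000000 of them received a lentiviral guide library of 130209 guides on the lentiCRISPRv2 backbone for 24 h with 4 ug/mL polybrene, followed by 48 h of 2 ug/mL puromycin. The sort at day 5 took about 500000 cells positive for the reporter, some 3.84 sorted cells per library guide. The 4 libraries are 2 of sorted MERVL-positive cells and 2 of total cells, which carry the same library and received the same agents, and the label for treatment is none in both groups. The titles name the libraries of a group as sequencing repeats, so the deposited p-values may not reflect any spread between independent cultures or sorts. The authors' deposited table gives 1 value per gene for the whole comparison, so a value in each library, its spread and the depth cannot be shown, and single guides are not listed.

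Values above 0 are taken to mean that guides were more frequent in the MERVL-positive libraries. The numerator is not stated, so this reading is likely rather than settled. It rests on the series title, which links deficiency of Ints7 to MERVL activation, and on Ints7 standing at rank 157 for enrichment and 18586 for depletion per the authors' deposited table. The log2 fold change of Ints7 was small, 0.14, with 3 guides up and 1 down, per the authors' deposited table. If the reading were reversed, all directions below would reverse too.

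Splicing removes introns through the stepwise assembly of snRNPs, each a small nuclear RNA with a ring of Sm or LSm proteins and its own specific proteins. The U1 snRNP recognises the 5' splice site and the U2 snRNP the branch site, and the U4/U6.U5 tri-snRNP then brings in the catalytic RNA, helped by the PRP19 complex. The RNAs of U1, U2, U4 and U5 are 3'-end processed by Integrator, the complex to which Ints7 belongs. MERVL is an endogenous retrovirus expressed in the 2-cell embryo and in rare 2-cell-like cells of embryonic stem cell cultures. Pladienolide B, an inhibitor that binds SF3B1, is known to move mouse embryonic stem cells towards a totipotent-like state. Most snRNP proteins are needed by all dividing cells, and guides that had left both groups by day 5 would not appear as a difference between them.

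Across the 52 genes, knockouts of snRNP proteins were spread to both sides of 0. Their median log2 fold change was 0.052 per the authors' deposited table, against -0.021 for all genes and 0.019 for the 998 single non-targeting guides. Values ran from -1.29 for Snrpn to 0.75 for Snrpa, with an SD of 0.39 among the 52 genes and 0.48 among all genes. A value below 0 was held by 24 of the 52 genes per the authors' deposited table, and by 52.0% of all genes. Snrpn was the 1 member outside the range that held the middle 95% of genes with the same number of guides (-1.05 to 0.77 for 6 guides and -1.18 to 0.90 for 5), a position held by 5.01% of such genes. The mean of the 52 genes was -0.0064, so mean and median differed in sign.

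**Figure D1:**
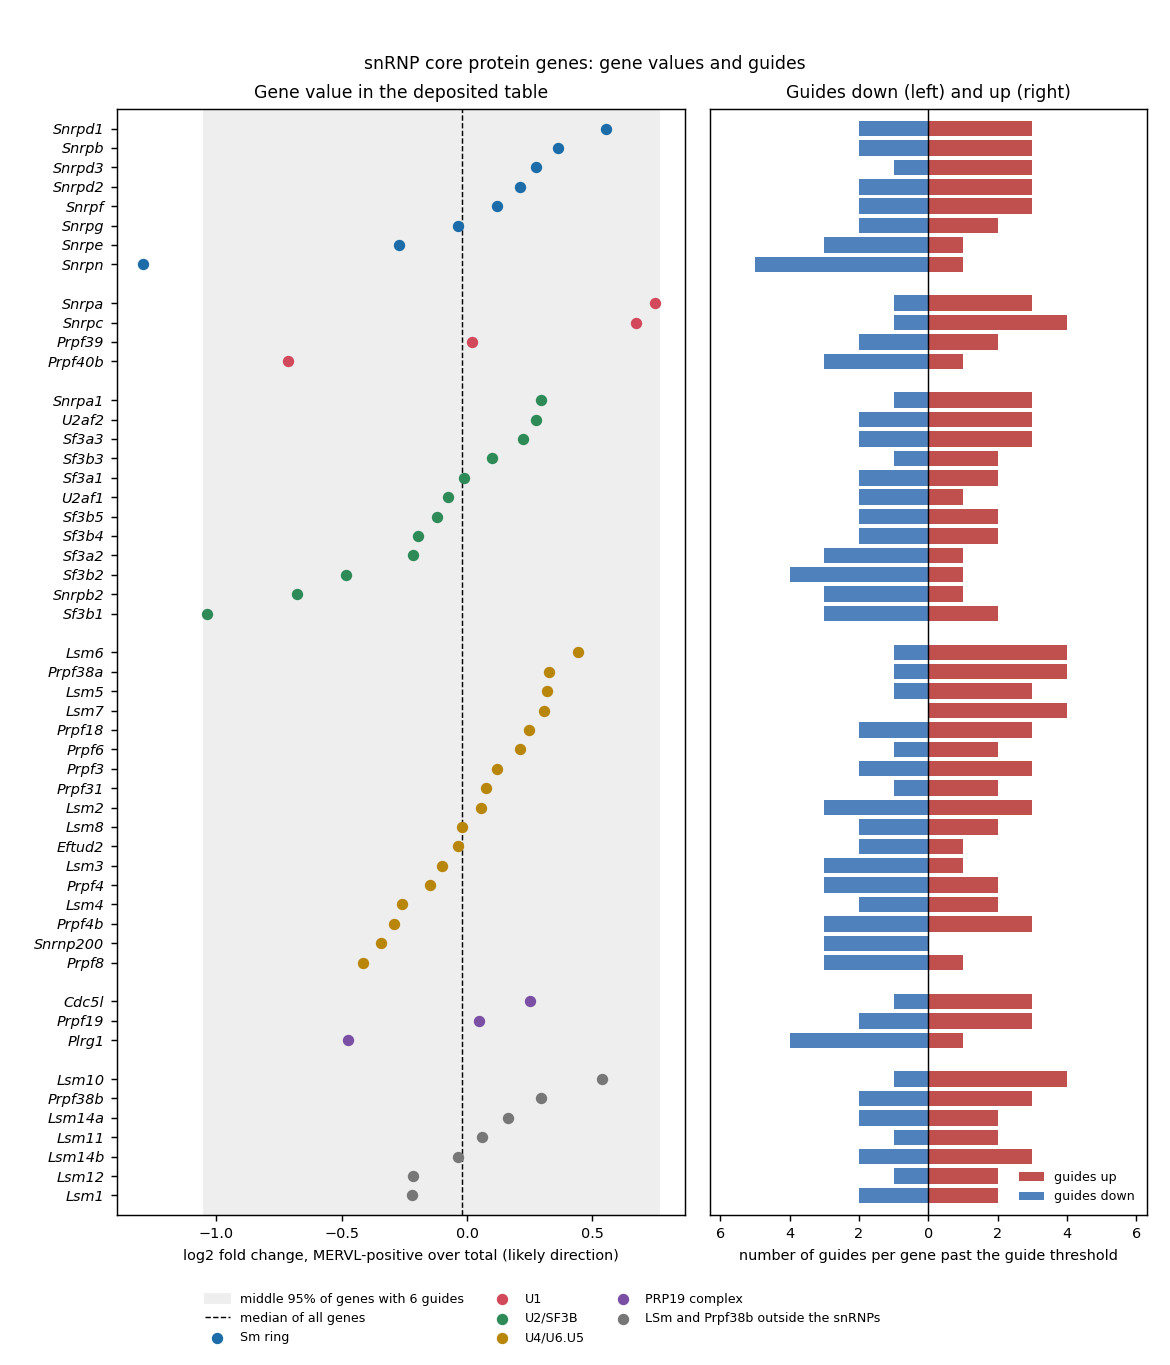
Left, log2 fold change of 51 of the 52 genes on the x axis, grouped and coloured by snRNP, with the median of all genes as a dashed line and the middle 95% of genes with 6 guides shaded. Right, the number of guides of each gene past the authors' guide threshold, down in blue to the left and up in red to the right. Snrpn at -1.29 is the one point outside the shading, and most genes have guides on both sides.

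In neither direction did a member reach a false discovery rate under 0.05 per the authors' deposited table, where 0% of all genes passed for enrichment and 0.00491% for depletion. The lowest false discovery rates of members per the authors' deposited table were 0.985 for enrichment and 0.947 for depletion. An unadjusted enrichment p under 0.05 was held per the authors' deposited table by 1 member, Snrpc, against 5.02% of all genes. An unadjusted depletion p under 0.05 was held per the authors' deposited table by 2 members, Sf3b1 and Snrpn, against 5.07% of all genes. These come to 1.92% and 3.85% of members, both below the shares of all genes, so the counts of unadjusted p-values are no result about the snRNP genes.

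**Figure D2:**
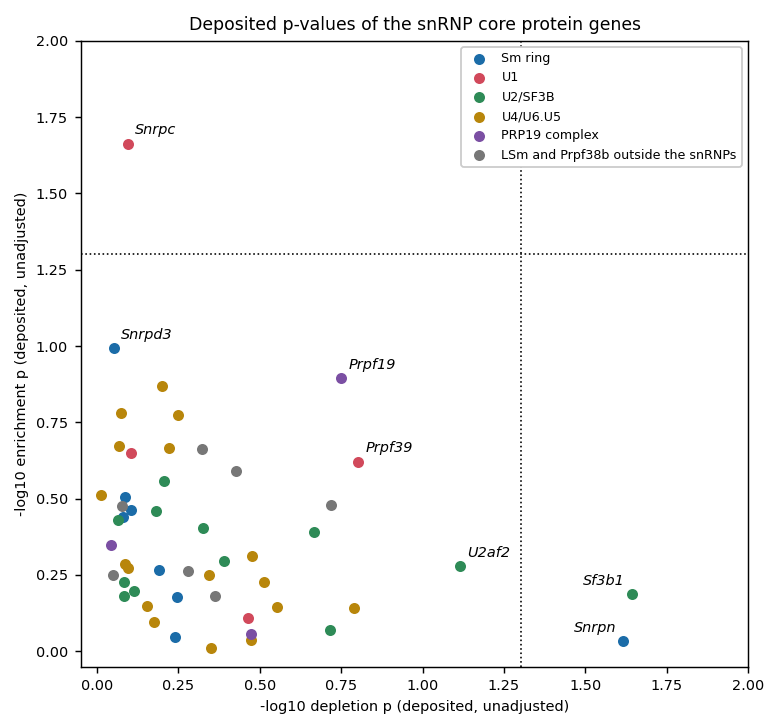
Each point is a gene, 51 of the 52, with −log10 of its deposited depletion p on the x axis and of its deposited enrichment p on the y axis, both unadjusted and coloured by snRNP. Dotted lines mark the threshold of 0.05. Snrpc lies above the horizontal line, Sf3b1 and Snrpn lie right of the vertical line, and U2af2 comes next for depletion.

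Guides of the same gene often lay on opposite sides, and 50 of the 52 genes (96.2%) had guides both up and down, against 85.6% of all genes, of which some have fewer guides. A guide counts as up or down when it passes a loose threshold of the authors' ranking, which 37.4% of guides over all genes did upwards and 38.0% downwards. Of the 305 guides against the 52 genes, 119 were up (39.0%) and 106 were down (34.8%) per the authors' deposited table. At least 4 guides were up in 5 members, Snrpc, Lsm6, Lsm7, Lsm10 and Prpf38a, compared with 12.8% of all genes, per the authors' deposited table. At least 4 guides were down in 3 members, Snrpn, Sf3b2 and Plrg1, compared with 13.5% of all genes, per the authors' deposited table. The most frequent patterns were 3 up with 2 down, in 11 genes, and 2 up with 2 down, in 10 genes. Guides of the same gene share their target and are not replicates.

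Sm proteins form the ring of 7 subunits that closes around the snRNAs of U1, U2, U4 and U5. Of their 8 genes, 5 were above 0 and 3 below, with a median of 0.16 per the authors' deposited table. Snrpd1 had a log2 fold change of 0.55 with 3 guides up and 2 down, an enrichment p of 0.312 and a depletion p of 0.819 per the authors' deposited table. Snrpb, the ring subunit SmB, had 0.36 with 3 guides up and 2 down, and an enrichment p of 0.346, per the authors' deposited table. Snrpd3 came closest to the threshold on the enrichment side of the ring per the authors' deposited table, with 0.27, 3 guides up, 1 down and an enrichment p of 0.102. The values of Snrpd2 and Snrpf were 0.21 and 0.12, those of Snrpg and Snrpe -0.036 and -0.27, per the authors' deposited table. Snrpe and Snrpg have processed pseudogenes, and whether their guides match these was not checked, since guide sequences were not used here.

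Snrpn encodes SmN, the close relative of SmB, and is an imprinted gene expressed from the paternal allele and best known from the brain. Its mm10 position is chromosome 7, 59982495 to 60450177. It had the lowest value of all 52 genes, -1.29, a ratio of 0.408, and 5 of its 6 guides were down while 1 was up per the authors' deposited table. Its depletion p was 0.0242 at rank 533 of 22510 entries, with a false discovery rate of 0.947 per the authors' deposited table, so it did not pass. Without Snrpn the median of the Sm genes was 0.21 in place of 0.16. Snurf, a gene within the Snrpn locus whose reading frame shares its transcript (chromosome 7 from 59982495 to 60005199), had its own entry. Whether guides of Snurf and Snrpn match both genes was not checked, since guide sequences were not used here. The value of Snurf was 0.20 with 2 guides up and 2 down per the authors' deposited table. Its depletion p was 0.391 at rank 8315, and its enrichment p 0.507 at rank 10897, per the authors' deposited table. The log2 fold changes of this overlapping pair thus lay on opposite sides of 0, yet both genes ranked better for depletion than for enrichment. Each gene had guides both up and down, and the difference could not be tested.

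The U1 group holds the highest values of the 52 genes. Snrpa encodes the U1-specific A protein, which binds a stem-loop of the U1 RNA, and lies on chromosome 7 from 27187006 to 27196271 in mm10. Its log2 fold change was 0.75, a ratio of 1.68, with 3 guides up and 1 down per the authors' deposited table. Its enrichment p was 0.225, at rank 4754, per the authors' deposited table. Snrpc encodes the U1-specific C protein, which stabilises the pairing of the U1 RNA with the 5' splice site, and lies on chromosome 17 from 27840028 to 27851968 in mm10. It had 0.67, a ratio of 1.59, with 4 guides up and 1 down per the authors' deposited table. Its enrichment p of 0.0217, at rank 450 and a false discovery rate of 0.985, was the lowest among the members per the authors' deposited table.

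Not all U1 proteins were high: Snrnp70, a U1 protein outside the naming rule, had -0.089 with 2 guides up and 2 down per the authors' deposited table. Prpf39 and Prpf40b encode proteins that join U1 less tightly, and their values also lay below those of Snrpa and Snrpc. Prpf39 had 0.019, and its unadjusted p-values were 0.239 for enrichment and 0.158 for depletion, per the authors' deposited table. Prpf40b had -0.72, a ratio of 0.609, with 3 of 5 guides down, 1 up and a depletion p of 0.344 per the authors' deposited table.

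U2 and its SF3A and SF3B subcomplexes, which clamp the branch site, had values on both sides of 0, and the group's direction depended on the measure. Of 12 genes, 8 were below 0 and 4 above, with a median of -0.097 per the authors' deposited table. By rank, 7 of the 12 stood better for enrichment and 5 for depletion. Among the SF3A and SF3B subunits that the naming rule takes, 6 of 8 were below 0, with a median of -0.16, while 52.0% of all genes were below 0. Yet 6 of these 8 ranked better for enrichment, and Sf3b1 and Sf3b2 alone ranked better for depletion, per the authors' deposited table. Their 46 guides were 41.3% down and 32.6% up per the authors' deposited table, where 38.0% and 37.4% are the shares for guides of all genes.

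Sf3b1, on chromosome 1 from 54985169 to 55027501 in mm10, encodes the large SF3B subunit that holds the branch-site helix and is the target of pladienolide B. Its log2 fold change was -1.04, a ratio of 0.487, the lowest of the U2 genes, and its depletion p was 0.0228 at rank 522 per the authors' deposited table. The false discovery rate given by the authors' deposited table was 0.947. All 5 guides passed the guide threshold, but 3 were down and 2 were up per the authors' deposited table, so guides against this gene pointed both ways. Its enrichment p was 0.648 per the authors' deposited table. Under the reading used here, the value below 0 stands for fewer guides in MERVL-positive cells.

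Sf3b2, which contacts the RNA near the branch site, had -0.48 with 4 of 6 guides down and 1 up, and a depletion p of 0.193 per the authors' deposited table. The remaining SF3B subunits under the naming rule were closer to 0, with -0.19 for Sf3b4, -0.12 for Sf3b5 and 0.10 for Sf3b3, per the authors' deposited table. Sf3b6, the subunit that touches the branch-point adenosine, is listed as 0610009D07Rik and is outside the naming rule. It had 0.31, with 4 guides up, 1 down and an enrichment p of 0.323 per the authors' deposited table. Phf5a, another SF3B subunit outside the rule, had -0.018 with 2 guides up and 3 down per the authors' deposited table. The SF3A genes, which tether SF3B to the U2 core, had 0.22 for Sf3a3, -0.012 for Sf3a1 and -0.22 for Sf3a2, per the authors' deposited table.

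The U2-specific RNA-binding pair was split. Snrpa1, encoding the U2-specific A' protein, had 0.29, with 3 guides up and 1 down per the authors' deposited table. Snrpb2, encoding its partner B'', had -0.68, a ratio of 0.625, with 1 guide up, 3 down and a depletion p of 0.407, per the authors' deposited table. The U2AF heterodimer reads the 3' splice site before U2 arrives, U2af2 on the pyrimidine tract and U2af1 on the terminal AG. U2af2 had a value of 0.27 with 3 guides up and 2 down, yet its depletion p of 0.0769 was far below its enrichment p of 0.527 per the authors' deposited table. U2af1 had -0.075, with 1 guide up and 2 down, per the authors' deposited table.

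Such a disagreement, with the log2 fold change on one side of 0 and the better of the 2 ranks on the other, occurred in 7 of the 52 genes and in 19.3% of all genes. Besides U2af2 these were Sf3a1, Sf3a2, Sf3b4 and Sf3b5 of the U2 group, Prpf39 of U1 and Prpf6 of the tri-snRNP. In Sf3a2, for example, 1 guide was up and 3 were down, yet it ranked 5843 for enrichment and 13358 for depletion per the authors' deposited table. The sign of these 7 genes depends on which of the deposited measures is read.

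**Figure D3:**
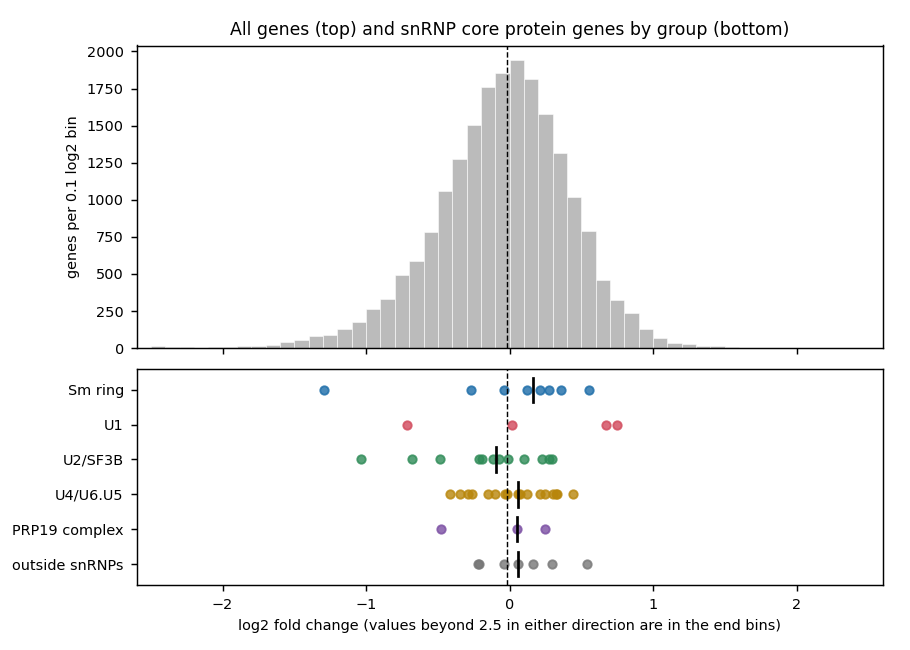
Top, number of genes per bin of log2 fold change over all 20380 genes. Bottom, 51 of the 52 snRNP genes by group on the same axis, with black bars for the medians of the groups other than U1 and the dashed line for the median of all genes. The medians drawn lie near the peak of the upper panel, from -0.097 for U2/SF3B to 0.16 for the Sm ring.

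The U4/U6.U5 tri-snRNP group was evenly divided, with 9 of 17 genes above 0, a median of 0.056 and a narrow range from -0.41 to 0.44 per the authors' deposited table. None of the 17 had an unadjusted p under 0.05. The lowest were 0.136 for enrichment, in Prpf18, and 0.163 for depletion, in Prpf4, per the authors' deposited table.

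Lsm2 to Lsm8 form the ring that holds the 3' end of the U6 RNA. Their values were 0.44 for Lsm6, 0.32 for Lsm5, 0.31 for Lsm7, 0.056 for Lsm2, -0.020 for Lsm8, -0.099 for Lsm3 and -0.26 for Lsm4 per the authors' deposited table. Lsm6 had 4 guides up and 1 down, with an enrichment p of 0.212, and Lsm7 had 4 up and none down, with an enrichment p of 0.308, per the authors' deposited table. In Lsm2 all 6 guides passed the threshold, 3 up and 3 down, per the authors' deposited table. Of the 41 guides against the ring, 46.3% were up and 29.3% down per the authors' deposited table, beside 37.4% and 38.0% for guides of all genes. Neither share was tested.

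The U5 proteins form the platform around the catalytic centre. Prpf8, its scaffold, had -0.41 with 1 guide up and 3 down, and Snrnp200, the helicase that unwinds U4 from U6, had -0.34 with no guide up and 3 down per the authors' deposited table. Their depletion p-values were 0.337 and 0.447 per the authors' deposited table. Eftud2, a GTPase that works with both, had -0.035, and Prpf6, which bridges U5 to U4/U6, had 0.21, per the authors' deposited table. Of the 24 guides against these 4 genes, 4 were up (16.7%) and 9 were down (37.5%), where the shares for guides of all genes are 37.4% and 38.0%. These shares were not tested, and they leave out U5 proteins outside the naming rule. Of those, Cd2bp2 had 0.39 with 4 guides up and 2 down, and Snrnp40 had 0.046 with 2 up and 2 down. Ddx23 had -0.032 with 2 up and 2 down, and Txnl4a had -0.11 with 1 up and 1 down, per the authors' deposited table.

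Of the U4/U6 proteins, Prpf3 had 0.12, Prpf31 had 0.074 and Prpf4 had -0.15 per the authors' deposited table. The kinase Prpf4b, which acts as the tri-snRNP joins, had -0.29, with 3 guides up and 3 down, per the authors' deposited table. Prpf38a, which enters with the tri-snRNP, had 0.33 with 4 guides up, 1 down and an enrichment p of 0.216, per the authors' deposited table. Prpf18, a factor of the second catalytic step, had 0.25 with 3 guides up and 2 down, per the authors' deposited table. None of these 6 values lay outside the middle 95% of genes.

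The PRP19 complex, which stabilises the activated spliceosome, is represented by 3 genes. Cdc5l had 0.25 with 3 of 5 guides up and 1 down, and Plrg1 had -0.48 with 1 of 6 guides up and 4 down per the authors' deposited table. Prpf19, the ubiquitin ligase of the complex, had 0.049, with 3 of its 6 guides up and 2 down, per the authors' deposited table. Its p-values of 0.127 for enrichment and 0.178 for depletion in the deposited table of the authors were both among the lower ones of the 52 genes. The median of the 3 was 0.049, and -0.21 over Prpf19 and Plrg1, which have 6 guides.

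The naming rule also takes 7 genes that act outside these snRNPs or loosely beside them, with a median of 0.060 per the authors' deposited table. Lsm10 and Lsm11 belong to the U7 snRNP, which cleaves the 3' ends of histone messages. Lsm10 had 0.54, a ratio of 1.45, with 4 guides up, 1 down and an enrichment p of 0.218, while Lsm11 had 0.060 with 2 up and 1 down, per the authors' deposited table. Lsm1, which replaces Lsm8 in the cytoplasmic ring of mRNA decay, had -0.22, per the authors' deposited table. Lsm14a and Lsm14b, proteins of P-bodies, had 0.16 and -0.037 with enrichment p-values of 0.335 and 0.332 per the authors' deposited table. Their depletion p-values were 0.839 and 0.191, per the authors' deposited table. Lsm12 had -0.21 and Prpf38b had 0.29, per the authors' deposited table.

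The 3 pairs of related proteins compared here differed by unequal amounts. Snrpb exceeded Snrpn by 1.65 on the log2 scale, and Snrpa exceeded Snrpb2, another protein with the same type of RNA-binding domain, by 1.43 per the authors' deposited table. Lsm14a exceeded Lsm14b by 0.20, per the authors' deposited table. Whether guides against one gene of a pair, such as Snrpb and Snrpn, also match the other was not checked, since guide sequences were not used here. No error can be given for these differences, because the authors' deposited table holds no value per library or per guide.

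A separate list held 74 further genes of the spliceosome and of the machinery that builds snRNPs. Their median was -0.039, with 34 above 0 and 40 below, and none passed a false discovery rate of 0.05 per the authors' deposited table. An unadjusted p under 0.05 was held by 2 for enrichment and 3 for depletion, 2.70% and 4.05% of the list, against 5.02% and 5.07% of all genes. By role, the medians were 0.017 for 19 other snRNP proteins, -0.077 for 21 proteins of the PRP19-related and catalytic stages, -0.0037 for 8 helicases, -0.26 for 9 factors of branch-site recognition and -0.12 for 17 factors of snRNP assembly and import.

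Mfap1a, a component of the precatalytic spliceosome, had the lowest enrichment p of this list, 0.00321 at rank 72, with a value of 0.37, 4 guides up and 1 down per the authors' deposited table. It has a near-identical copy, Mfap1b, and whether guides match both was not checked, so the value of Mfap1a is uncertain. Smn1, which loads Sm rings onto snRNAs, had 0.79 with 4 guides up, 2 down and an enrichment p of 0.0413, per the authors' deposited table. Snupn, which imports assembled snRNPs into the nucleus, had -2.05, a ratio of 0.241, with 3 of 5 guides down, 1 up and a depletion p of 0.0249 per the authors' deposited table. Syf2, a partner of the PRP19 complex, had -0.82 with 5 of 6 guides down and a depletion p of 0.0419, per the authors' deposited table. Ppil1, a peptidyl-prolyl isomerase of the activated spliceosome, had a depletion p of 0.0123 although its value was 0.78 and 4 of its 6 guides were up per the authors' deposited table. Smn1 and Snupn, an assembly and an import factor, thus lay on opposite sides of 0, and the lowest false discovery rate of these 5 genes was 0.886.

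**Figure D4:**
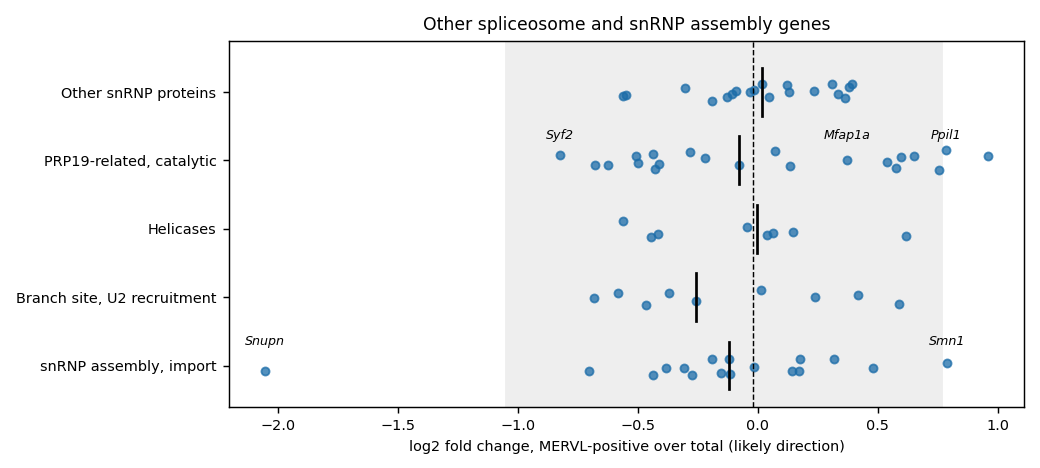
Log2 fold change of 74 other spliceosome and snRNP assembly genes on the x axis, by role, with black bars for medians, the dashed line for the median of all genes and shading for the middle 95% of genes with 6 guides. Named points have an unadjusted deposited p under 0.05 in either direction, with Snupn at -2.05 far to the left.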

How the data were processed

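Guides were amplified by PCR from the DNA of sorted and unsorted cells, per the labels' protocols. The submitters' processing notes name MAGeCK and mm10, without version or settings, and the normalization is not given there or elsewhere in the sources. The authors' deposited table has 22510 entries, split here by name into 20380 genes, 1132 microRNAs and 998 non-targeting guides. For each entry and direction the authors deposited a score, a rank, a false discovery rate and a p-value, per the file headers. A log2 fold change, the number of guides and of guides past a threshold were deposited too. Depth per library is unknown.

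The authors' p-values were used as deposited, at a threshold of 0.05, and no test was added. The counts, medians and percentiles were computed with Python 3.11.15 and pandas 2.3.3. Of these, only the median was tested on simulated data. The members, groups and lists were chosen with earlier results of these data known. Of the members 51 are named, and 1, with its paralog pair, is not reported here but stays in counts and medians. Guide counts or p-values are given for those with an unadjusted p under 0.05, the 5 highest, the 5 lowest and 3 paralog pairs. Not every deposited value of these genes is printed. Further list genes are named if their p was under 0.05, at most 5 per direction, and other values were added after they were seen. Positions come from a RefSeq table of GRCm38.p6, in which all 52 members matched by symbol. Of 74 further genes, 73 were listed under their own symbol and 1 under a synonym. Alternatives varied the genes kept, the threshold, the zero point and the measure.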

Additional observations from a re-analysis of the deposited data

How the results depend on the processing

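At a threshold of 0.01 in place of 0.05, 0 members had an unadjusted enrichment p and 0 an unadjusted depletion p below it per the authors' deposited table, against 1 and 2 at 0.05. At 0.1 these counts were 1 and 3. Among members with 6 guides only, 1 had a depletion p under 0.05, since Sf3b1 has 5 guides. The median of the 52 genes lay between -0.0064, for the mean in its place, and 0.073, relative to the median of all genes. Between 22 and 24 genes were below 0 under the other zero points, and 23 had a better depletion than enrichment rank. The U2/SF3B median was -0.075 with the entry of Sf3b6, an alternative chosen after seeing the data, as was leaving out Snrpn. The median of the genes outside the snRNPs was 0.012 over those with 6 guides. No paired analysis was possible because the table holds no value per library, and for the same reason no repeat could be left out. With 3.84 sorted cells per library guide and no value per guide, the absence of a call is no evidence of no effect.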
